A study of Homo sapiens with 4 samples.

Results

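The proteins of the cytosolic ribosome and the pseudogene copies of their genes were examined in cell clusters grown from the human lung adenocarcinoma line A549 after knockdown of DUSP23, a dual-specificity phosphatase gene. Members were listed coding genes and pseudogenes taken by gene name. The names were RPL or RPS followed by a number, RPLP0, RPLP1, RPLP2, and those starting with RPSA, except the RPS6K kinases. Pseudogenes of the RPLP genes fall outside these names. This gave 142 of 16371 genes. Of these, 89 had a protein-coding biotype and 53 a pseudogene biotype. The shDUSP23 group (2 libraries) carried a short hairpin construct against DUSP23 and is given as a DUSP23 knockdown, and the shMock group (2 libraries) carried a control construct and is given as wild type. All libraries came from total RNA of cell clusters of this established line, prepared with an mRNA library kit and read on an Illumina sequencer. How many hairpins or clones were used, and whether the libraries of a group came from separate cultures, is not given in the sources used here, so the p-values speak of the spread among these 4 libraries alone, which may be technical.

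The cytosolic ribosome is built from a small and a large subunit, named RPS and RPL after their proteins, which assemble with ribosomal RNA in the nucleolus. Nearly every ribosomal protein is encoded by a single active gene, and many of these messages start with a C followed by a run of pyrimidines, the 5′ terminal oligopyrimidine (TOP) motif, through which their translation is tied to growth signalling by mTOR. Ribosomal protein messages are abundant in dividing cells, and reverse-transcribed copies of them have left a large number of processed pseudogenes in the human genome. These copies lack introns and often differ from the coding gene at few bases, so short reads of a coding gene and its copies can be hard to tell apart.

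The deposited values were FPKM, the fragments of a transcript divided by its length and by the depth of the library. Steps of 1 fragment in single-transcript genes gave totals of 26992780 and 42235140 fragments for shDUSP23 libraries 1 and 2, against 21274180 and 25240540 for shMock libraries 1 and 2. Summed over all genes, the table held 438604 and 446982 FPKM in shDUSP23, less than the 540163 and 578361 FPKM in shMock, and mitochondrially encoded genes held 8.12% and 7.97% of it in shDUSP23 against 12.3% and 13.1% in shMock. DUSP23 itself was at 1.71 and 2.71 FPKM in shDUSP23 and at 29.96 and 35.9 FPKM in shMock (limma, log2 fold change -3.64, SE 0.22, Benjamini-Hochberg adjusted p = 3.12e-05). Of 5 epithelial genes looked up, the keratin gene KRT18, EPCAM and CDH1 were called lower and KRT8 and KRT19 were not called. KRT8 had 917 and 999 FPKM in shDUSP23 and 1144 and 1153 FPKM in shMock. EPCAM had 3.47 and 3.999 FPKM in shDUSP23 and 5.83 and 7.05 FPKM in shMock (limma, log2 fold change -0.71, adjusted p = 0.0254). CDH1, the gene of E-cadherin, had 6.20 and 8.14 FPKM in shDUSP23 and 22.4 and 21.5 FPKM in shMock (log2 fold change -1.56, adjusted p = 0.000288). Of 4 lung lineage genes, NAPSA was listed between 1.96 and 3.22 FPKM and was not called, and NKX2-1, SFTPB and SFTPC were not among the listed genes. The part of these changes in the results below was not tested.

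Coding ribosomal protein genes held a smaller share of the listed RNA in the shDUSP23 clusters. Their summed FPKM was 8.13% and 7.68% of the total in the shDUSP23 libraries and 14.2% and 16.1% in the shMock libraries. The sums themselves were 35642 and 34341 FPKM in shDUSP23 against 76511 and 92990 FPKM in shMock, 2.42 times lower by the group means. The 46 canonical large-subunit genes had 4.44% and 4.20% of the total in shDUSP23 against 7.58% and 8.64% in shMock. The 31 canonical small-subunit genes had 3.54% and 3.34% in shDUSP23 against 6.38% and 7.22% in shMock. For each of these sums the groups did not overlap. With 2 libraries against 2, an exact permutation test cannot go below p = 0.333, so these sums carry no test of their own. In bulk RNA a smaller share cannot be told apart from fewer cells that express the genes, and FPKM show shares of the sequenced RNA, not amounts per cell.

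**Figure D1:**
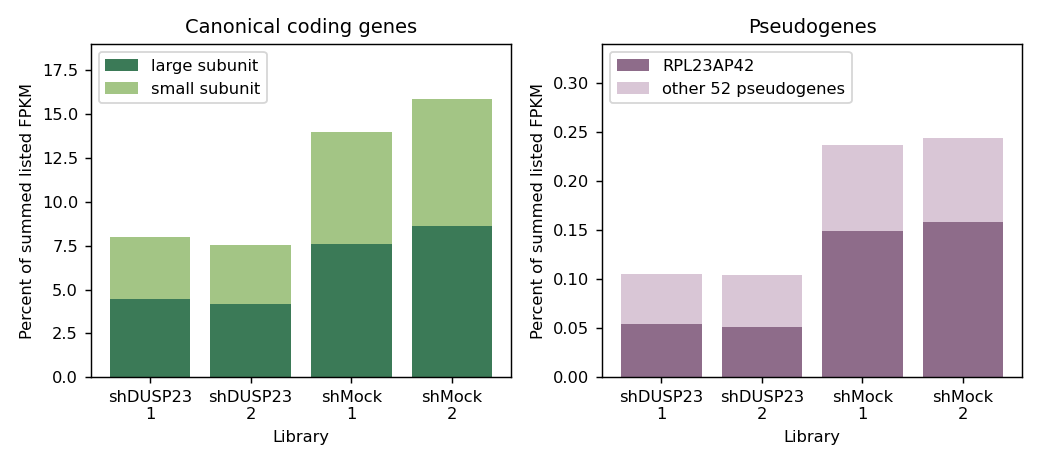
Percent of the summed listed FPKM in each library held by canonical ribosomal protein genes (left, stacked by subunit) and by ribosomal protein pseudogenes (right, RPL23AP42 and the other 52). Each bar is 1 library. In both panels the shDUSP23 bars are lower than the shMock bars, and the right axis spans a far smaller share than the left.

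Nearly all coding members fell. In a limma fit over the 13691 genes that averaged at least 1 FPKM, on log2(FPKM + 0.5) with Benjamini-Hochberg adjustment over all of them, 87 of 89 coding members were lower in shDUSP23 at an adjusted p under 0.05 and 0 were higher. All 89 log2 fold changes were below 0, so none was higher at an unadjusted p either. Of all tested genes, 22.2% were called lower and 23.1% higher. The median log2 fold change was -1.27 over the coding members and 0.03 over all tested genes. Both members that were not called are described below, the paralogue RPL39L and the readthrough gene RPS10-NUDT3. When every library was scaled to the same sum of FPKM, 79 of the 89 coding members were called lower with a median of -0.93. That scaling moved the median of all tested genes to 0.34 and the share of higher genes among those called to 75.7%, against 51.0% on the deposited values. Quantile normalization moved the family most, to a median of -0.56 with 71 of the 89 coding members called lower and 83 of them below 0.

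All 77 canonical genes of the ribosome, 46 of the large and 31 of the small subunit, were called lower. Their log2 fold changes ran between -2.003 for RPL10A and -0.58 for RPL28, with a median of -1.28, and 68 of them were at least 2-fold lower. The median was -1.27 for the large subunit and -1.40 for the small one. In all 77 genes the higher shDUSP23 library lay below the lower shMock library, a separation seen in 36.2% of all tested genes in this direction and in 39.3% in the other. The mean level of a canonical gene in shDUSP23 lay between 91.8 and 1444 FPKM (median 401), and in shMock between 217 and 2960 FPKM (median 1002). The order of the genes by level was much the same in both groups, with a Spearman rho of 0.92 between their group means across these 77 genes, given as a description. Genes of high level outside the family moved in both directions. Among 588 protein-coding genes outside the family that averaged at least 100 FPKM, a level chosen after values were seen, 272 were called lower and 146 higher, with a median of -0.28.

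**Figure D2:**
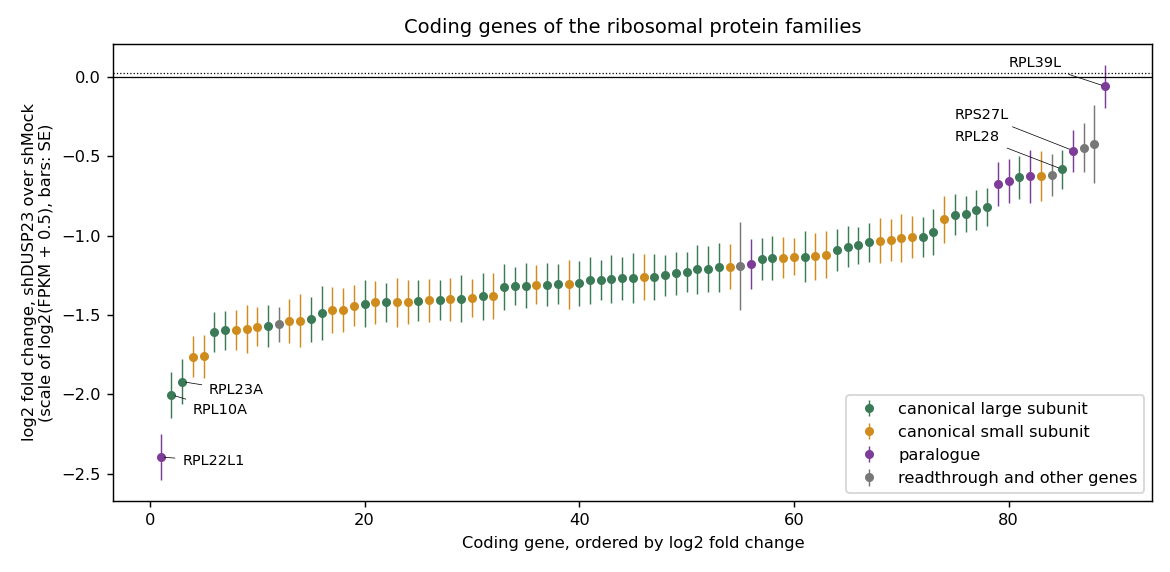
Log2 fold change (shDUSP23 over shMock, scale of log2(FPKM + 0.5)) of the 89 coding members, ordered by size and coloured by class, with bars for the standard error of the limma fit (2 libraries per group). The dotted line is the median of all tested genes. The canonical genes run between -2.003 and -0.58, RPL22L1 lies below them at -2.40 and RPL39L lies near 0.

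RPL10A, a large-subunit protein at the stalk near the exit site for spent tRNA, had the largest fall among the canonical genes. The gene (ENSG00000198755, chromosome 6, 35468401 to 35470785, plus strand, GRCh38) had 147 and 119.8 FPKM in the shDUSP23 libraries, against 483 and 588 FPKM in the shMock libraries. The groups were far apart, at 4.01-fold lower (log2 fold change -2.003, SE 0.15, limma adjusted p = 5.1e-05). RPL23A, which lies at the exit of the tunnel for the nascent chain, had 293 and 280.1 FPKM in shDUSP23, against 959.9 and 1230.0 FPKM in shMock (log2 fold change -1.92, SE 0.14). Part of the reads of RPL23A cannot be separated from those of a near-identical pseudogene, which is described with the pseudogenes.

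Among the small-subunit genes, RPS20 had 395 and 347 FPKM in shDUSP23 and 1188 and 1332 FPKM in shMock. RPS24, one of the genes mutated in Diamond-Blackfan anaemia, had 507 and 466 FPKM in shDUSP23 and 1506 and 1802 FPKM in shMock. Both were 3.39-fold lower, with log2 fold changes of -1.76 and adjusted p of 5.13e-05 for RPS20 and 6.47e-05 for RPS24. RPS3A had 341 and 319 FPKM in shDUSP23 and 927 and 1076 FPKM in shMock. The log2 fold change of RPS3A was -1.60 (SE 0.13). Of the large-subunit genes, RPL3, whose protein reaches towards the catalytic centre, had one of -1.60 and RPL23 one of -1.61.

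The smallest falls of canonical genes were those of RPL28, RPS15, RPL18, RPL38 and RPL8. RPL28 had 409 and 372 FPKM in shDUSP23, against 552 and 619.6 FPKM in shMock (1.498-fold lower, log2 fold change -0.58, SE 0.12, limma adjusted p = 0.00553). RPS15, a protein of the head of the small subunit, had 201 and 235 FPKM in shDUSP23, against 290.4 and 386 FPKM in shMock (log2 fold change -0.62, SE 0.16, adjusted p = 0.0122). For RPL28 and RPS15 the gap between the groups was smaller than in the genes above, yet the libraries did not overlap. RPL18 had a log2 fold change of -0.63, RPL38 of -0.82 and RPL8 of -0.84. The directions of RPL28, RPL18, RPL38 and RPL8 rest on the scaling. After quantile normalization their log2 fold changes were 0.17, 0.17, 0.02 and 0.04, and none of them was called. The call of RPS15 was lost when shDUSP23 library 1 was left out (adjusted p = 0.0653) or shMock library 2 (adjusted p = 0.0665).

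**Figure D3:**
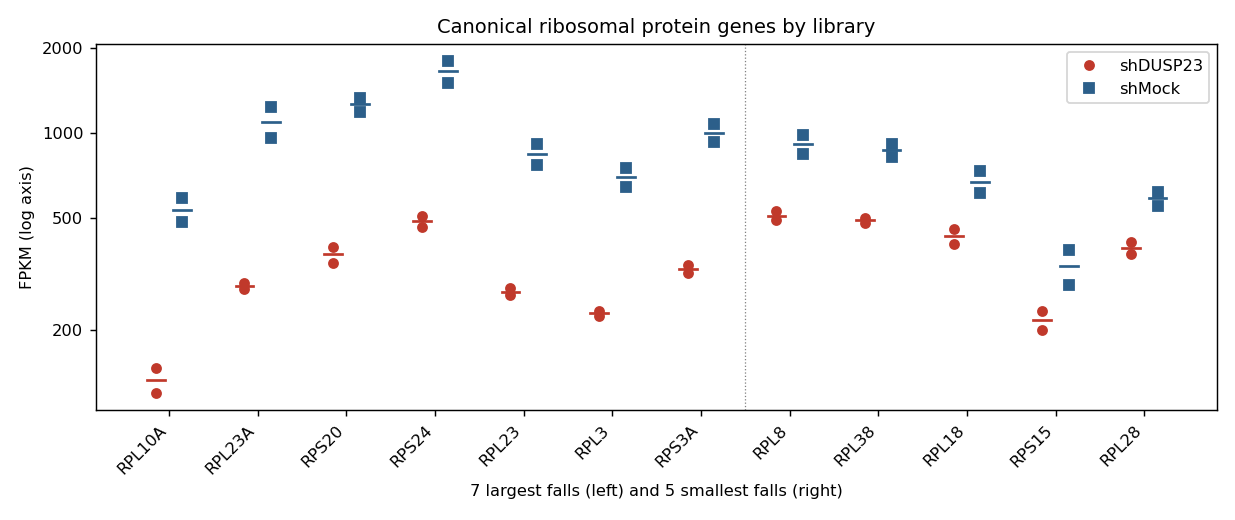
FPKM on a log axis of the canonical genes with the 7 largest falls (left of the dotted line) and the 5 smallest falls (right). Points are libraries and short lines are group means (2 libraries per group). The shDUSP23 points lie below the shMock points for every gene shown, with a narrower gap on the right.

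Some genes with known roles beyond the core of the ribosome were chosen after their values had been seen. Apart from FAU they are among the 77 canonical genes, so they lie within the range above by construction. RPLP0, RPLP1 and RPLP2 form the stalk that recruits translation factors, and their log2 fold changes were -1.28, -1.32 and -1.04. RPL5 and RPL11, which carry the 5S ribosomal RNA into the large subunit and can bind MDM2, had log2 fold changes of -1.57 and -1.07. RPS6, the substrate of the S6 kinases, had 449.6 and 411 FPKM in shDUSP23 and 1217 and 1349 FPKM in shMock (log2 fold change -1.57, SE 0.12). RPS19, the member with the highest mean level, had 1445 and 1442 FPKM in shDUSP23 and 2742 and 3179 FPKM in shMock (log2 fold change -1.03, SE 0.14). RPS27A, made as a fusion of ubiquitin and a small-subunit protein, had a log2 fold change of -1.42. FAU, outside the name rule, encodes a fusion with a ubiquitin-like protein, and it also fell, with a log2 fold change of -0.62.

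The replicates of shMock moved together over the family. All 77 canonical genes were higher in shMock library 2 than in shMock library 1, with a median difference over the coding members of 0.28 on the log2 scale, against -0.03 over all tested genes. In shDUSP23 the median difference of library 2 to library 1 was -0.08, and 24 of the 77 genes were higher in library 2. Without shMock library 2 the median log2 fold change of the coding members was -1.12, and without shMock library 1 it was -1.41. Across the 77 canonical genes the log2 fold change rose with GC content of the transcripts (Spearman rho 0.45, GC between 42.5% and 62.1%), so GC-poor genes had the larger falls. Over all tested genes the same rho was 0.27. Transcript length (rho -0.12) and mean FPKM (rho -0.14) tracked it less. These correlations run across genes of the same libraries and are descriptions. After each library was corrected for GC content and length, 82 of the 89 coding members were called lower with a median of -1.04.

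The start of the transcript was examined in RefSeq promoter sequences of GRCh38.p14, which matched 70 of the 89 coding members by symbol. A TOP-type start was counted where the annotated start base was a C followed by at least 5 bases of C or T. The sense strand was read, and the C could also lie inside a longer run. Such a start was present in 48 of these 70 genes (68.6%), against 3.83% of all 27305 RefSeq genes with a sequence. Read on the opposite strand, the same run was found in 0% of the coding members and in 1.74% of all genes. One start base cannot count on both strands, so this 0% follows in part from the sense-strand count and is no control for it. Within the 62 matched canonical genes, the 45 with the run at the start base had a median log2 fold change of -1.26. The 17 without it there had one of -1.28. Outside the family, 27.7% of the tested genes with the run at the start base were called lower, against 22.7% of those without it there. Within 5 bases of the start, a run was found in 56 of the 70 coding members, against 13.7% of all RefSeq genes. That wider count holds 52 of the 62 canonical genes, so several of the 17 carry a run nearby. The medians thus do not compare genes with a run against genes lacking one. A match describes the letters of the sequence and no factor's binding.

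The starts of RPL10A and RPL28 are shown because they had the largest and the smallest fall of the canonical genes. That of RPS24 is shown because it had the largest fall of the matched canonical genes with the run at the start base. The others pair a paralogue with its namesake. Each is 30 bases of the sense strand, 15 before and 15 from the annotated start. Capitals mark the pyrimidines from the first C within 5 bases of the start that at least 5 more C or T follow. A run may reach further upstream than the capitals. The genes were chosen after their values had been seen. The windows lie at chr6:35468386-35468415 on the plus strand for RPL10A, at chr10:78033848-78033877 on the plus strand for RPS24 and at chr19:55385917-55385946 on the plus strand for RPL28. They lie at chr1:6199581-6199610 on the minus strand for RPL22 and at chr3:170870181-170870210 on the minus strand for RPL22L1. RPL36A is at chrX:101390996-101391025 on the plus strand and RPL36AL at chr14:49620612-49620641 on the minus strand. RPS27 is at chr1:153990747-153990776 on the plus strand and RPS27L at chr15:63157463-63157492 on the minus strand. RPL26 is at chr17:8383179-8383208 on the minus strand and RPL26L1 at chr5:172958714-172958743 on the plus strand.
RPL10A: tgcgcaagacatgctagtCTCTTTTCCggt
RPS24: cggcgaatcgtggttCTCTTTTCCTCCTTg
RPL28: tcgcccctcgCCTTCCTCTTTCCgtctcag
RPL22: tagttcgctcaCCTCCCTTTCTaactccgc
RPL22L1: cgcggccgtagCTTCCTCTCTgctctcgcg
RPL36A: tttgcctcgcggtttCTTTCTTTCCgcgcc
RPL36AL: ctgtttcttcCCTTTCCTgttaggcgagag
RPS27: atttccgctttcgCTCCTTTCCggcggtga
RPS27L: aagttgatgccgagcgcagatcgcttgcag
RPL26: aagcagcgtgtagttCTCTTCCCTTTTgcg
RPL26L1: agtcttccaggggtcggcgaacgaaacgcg
RPL10A had a run of 9 bases that begins 3 bases after the annotated start. Its start base is an A, so RPL10A is among the genes counted above without the run at the start base. RPS24 carried a run of 14 bases and RPL28 one of 13. The marked runs of RPL28 and RPL22L1 begin before the start. Both hold such a C at the start base and were counted above with the run. RPS27L and RPL26L1, which fell by less than RPS27 and RPL26, had none in this window. RPL36AL, which fell by less than RPL36A, had 8 marked bases, and its run of pyrimidines reaches further upstream than these. RPL22L1, which fell by more than RPL22, had a run of 10 bases.

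The paralogues, further coding genes close in sequence to a canonical one, spread more widely than the canonical genes. Of the 7 paralogues listed, 6 were called lower, with log2 fold changes of the 7 between -2.40 and -0.06 and a median of -0.66. RPL22L1, the copy of the RNA-binding large-subunit protein RPL22, had the largest fall of any coding member. It (ENSG00000163584, chromosome 3, 170864875 to 170870208, minus strand) was at 18.7 and 14.7 FPKM in shDUSP23, against 89.8 and 88.8 FPKM in shMock (log2 fold change -2.40, SE 0.14, limma adjusted p = 3.12e-05). Its level was 19.02% and 17.2% of that of RPL22 in shDUSP23, against 42.0% and 36.7% in shMock. Leaving transcripts other than protein-coding ones out of the sum gave a log2 fold change of -3.43 for RPL22L1. Its protein-coding transcript of highest level was at 6.95 and 4.45 FPKM in shDUSP23, against 66.2 and 53.4 FPKM in shMock. Another transcript of it, annotated as a target of nonsense-mediated decay, was at 7.33 and 8.88 FPKM in shDUSP23, against 16.9 and 18.95 FPKM in shMock.

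In the other 5 pairs the paralogue held a larger percentage of its namesake's FPKM in shDUSP23 than in shMock. RPL39L, an autosomal copy of RPL39 known for its expression in testis and tumours, had 20.5 and 18.95 FPKM in shDUSP23 and 20.7 and 20.5 FPKM in shMock (log2 fold change -0.06, SE 0.14, adjusted p = 0.742). It had 2.89% and 2.88% of the level of RPL39 in shDUSP23, against 1.36% and 1.10% in shMock. With equal sums of FPKM its log2 fold change was 0.27, and with the GC and length correction it was 0.08, neither of them called. RPL36AL had 175.7 and 160.9 FPKM in shDUSP23 and 236 and 299.3 FPKM in shMock (log2 fold change -0.66, SE 0.14), and it held 59.3% and 56.0% of the level of RPL36A in shDUSP23, against 31.9% and 31.2% in shMock. RPS27L, a copy of RPS27 that is a known target of p53, had 186 and 197 FPKM in shDUSP23 and 238 and 295 FPKM in shMock (log2 fold change -0.46, SE 0.13, adjusted p = 0.0213). It held 19.8% and 24.4% of the level of RPS27 in shDUSP23, against 12.3% and 12.2% in shMock. After the GC and length correction its log2 fold change was 0.11 and it was not called.

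RPL7L1, a factor of large-subunit assembly, had a log2 fold change of -0.68 (SE 0.14), and RPL26L1 one of -0.63 (SE 0.17, adjusted p = 0.0161). RPL7L1 held 4.82% and 5.09% of the level of RPL7 in shDUSP23, against 3.14% and 2.79% in shMock. RPL26L1 held 4.76% and 4.19% of the level of RPL26 in shDUSP23, against 2.81% and 3.08% in shMock, and its call was lost with equal sums (adjusted p = 0.156), with the GC and length correction (0.122), without shDUSP23 library 2 (0.0555) and without shMock library 2 (0.142). The Y-linked copy RPS4Y1 was also called lower. In all 6 pairs the percentages of both groups did not overlap, and the difference within a pair was not tested. Of all tested genes, the levels themselves were separated in 36.2% (lower) and 39.3% (higher). The namesakes had log2 fold changes between -1.53 and -1.24. A gene of unchanged level would thus also hold a larger percentage of them in shDUSP23.

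**Figure D4:**
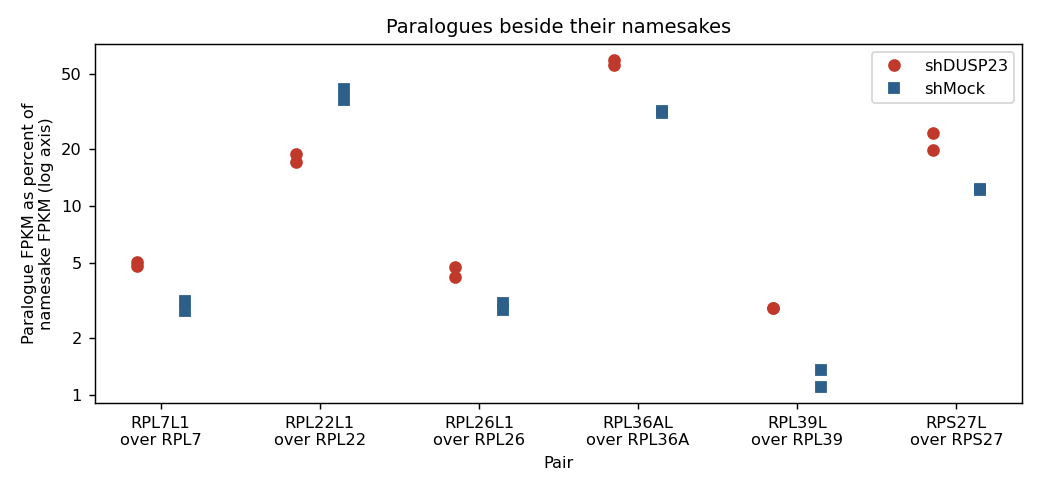
FPKM of each paralogue as a percent of the FPKM of its namesake, on a log axis, with 1 point per library. The shDUSP23 points lie above the shMock points in 5 pairs and below them for RPL22L1 over RPL22.

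The remaining coding members are listed under the family's names without being separate ribosomal proteins. RPL36A-HNRNPH2, a readthrough gene over RPL36A, had 77.4 and 76.1 FPKM in shDUSP23 and 221 and 234 FPKM in shMock (log2 fold change -1.56). RPL17-C18orf32 had a log2 fold change of -0.45 (adjusted p = 0.0422), which became 0.03 with the GC and length correction. RPS10-NUDT3 had 2.33 and 2.20 FPKM in shDUSP23 and 3.37 and 3.05 FPKM in shMock, and it was not called (adjusted p = 0.187). These genes share exons with the ribosomal protein gene in their name, so reads of both cannot be told apart with certainty. RPS19BP1, a nucleolar protein that binds RPS19, had a log2 fold change of -0.62 (adjusted p = 0.00599). RPS27AP5, with a pseudogene's name and a coding biotype, had 1.35 and 1.01 FPKM in shDUSP23 and 3.52 and 3.13 FPKM in shMock (log2 fold change -1.19).

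The listed pseudogenes held far less RNA and their sum was lower in shDUSP23. GENCODE release 29 annotates 1140 pseudogenes under the names used here, which leave out those of the RPLP genes. The table listed 53, of which 43 were processed, 8 transcribed processed and 2 transcribed unprocessed. They held 0.106% and 0.104% of the summed FPKM in shDUSP23, against 0.237% and 0.244% in shMock. A single copy, RPL23AP42, made up 50.4% of that sum in shDUSP23 and 64.0% in shMock. Without it, a choice made after its value was seen, the sum of the other 52 was 226 and 234 FPKM in shDUSP23, against 473 and 498 FPKM in shMock. Of the 53, 37 passed the filter on low values, and the mean of the other 16 lay between 0.256 and 0.985 FPKM.

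Among the 37 tested pseudogenes 22 were called lower and 2 higher, with a median log2 fold change of -1.09. Of all 457 tested pseudogenes of any kind 18.6% were called lower and 17.7% higher, and for the 420 outside the family the median was 0.03. Of the 37, 7 averaged under 1 FPKM in shDUSP23 and passed the filter through shMock alone, so a fall was built into their passing, and 5 of them were called lower. In the other direction 1 passed through shDUSP23 alone, and it was not called. Without a filter 28 of all 53 were called lower and 3 higher, with a median of -0.95. Over all genes that setting called 18.1% lower and 19.4% higher. The counts moved with single libraries and with the filter. Without either shMock library fewer pseudogenes were called in both directions, and so were fewer of all tested genes. The pseudogenes' median was -1.07 without shMock library 2 and -1.09 without shMock library 1. Among genes averaging at least 5 FPKM, 10 of the 14 that were left were called lower, against 27.9% of all genes left. With the GC and length correction the median was -0.60.

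RPL23AP42 (ENSG00000234851) is a processed copy of RPL23A on chromosome 3, 161429127 to 161429597, minus strand, and overlaps exons of long noncoding RNA genes on the opposite strand, whose reads cannot be told apart without knowing the strand. It had 238 and 229.8 FPKM in shDUSP23, against 808 and 916 FPKM in shMock (3.67-fold lower, log2 fold change -1.88, SE 0.12, limma adjusted p = 3.55e-05). Its level was 81.2% and 82.1% of that of RPL23A in shDUSP23, and 84.2% and 74.5% in shMock. The whole pseudogene of 471 bases aligned to a listed protein-coding transcript of RPL23A with 2 mismatches. RPL39P3, RPS2P5, RPL22P1 and RPL21P16 followed by level. RPL39P3 was identical to its coding gene over all 156 of its bases and had 46.8 and 55.1 FPKM in shDUSP23, against 129 and 138 FPKM in shMock (log2 fold change -1.39, SE 0.13).

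The next sequences show how close these copies are. Each pair gives 90 aligned bases of the pseudogene and of the coding gene's transcript, with the differing bases in capitals, from GENCODE 29 on GRCh38. The window is the one with the most differences among those without gaps and inside the coding sequence of the coding gene's transcript. RPL23AP42 is shown as the copy with the highest level, RPSAP9 and RPS10P7 as the only family pseudogenes called higher, and all were chosen after their values had been seen. The transcripts lie on chromosome 3 minus strand (RPL23AP42), chromosome 17 plus strand (RPL23A), chromosome 9 plus strand (RPSAP9), chromosome 3 plus strand (RPSA), chromosome 1 plus strand (RPS10P7) and chromosome 6 minus strand (RPS10).
RPL23AP42: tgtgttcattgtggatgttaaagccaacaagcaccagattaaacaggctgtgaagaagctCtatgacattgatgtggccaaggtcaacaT
RPL23A: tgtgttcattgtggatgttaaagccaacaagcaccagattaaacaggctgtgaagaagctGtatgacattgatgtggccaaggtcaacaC
RPSAP9: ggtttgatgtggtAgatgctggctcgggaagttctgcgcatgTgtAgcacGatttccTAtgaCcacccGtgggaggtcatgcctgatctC
RPSA: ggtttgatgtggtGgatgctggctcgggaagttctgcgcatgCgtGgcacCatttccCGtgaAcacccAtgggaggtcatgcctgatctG
RPS10P7: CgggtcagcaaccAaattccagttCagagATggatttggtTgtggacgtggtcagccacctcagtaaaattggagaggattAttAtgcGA
RPS10: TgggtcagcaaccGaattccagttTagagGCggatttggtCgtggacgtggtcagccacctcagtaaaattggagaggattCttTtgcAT
The window of RPL23AP42 holds both of its mismatches, and in the rest of the aligned stretch its letters are those of RPL23A. The RPSAP9 window has 9 differing bases and the RPS10P7 window 10.

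Fold changes of the pseudogenes lay near those of their coding genes where the sequences were nearly the same. Of 27 tested copies with at least 95% identity over the aligned stretch, 22 were called lower and 1 higher. Their median log2 fold change was -1.22, at a median distance of 0.18 from the fold change of the coding gene. Of 10 copies below 95% identity, 0 were called lower (2 at an unadjusted p under 0.05) and 1 higher, with a median of 0.07 and a median distance of 1.69. The 95% line was drawn after the fold changes had been seen, and the difference between these sets was not tested. Identity also went with overlap, aligned length and biotype. Below 95%, RPL23AP82, RPL13P5, RPL32P3, RPS26P19, RPL32P29, RPL23AP53 and RPL32P24 overlap exons of other genes. At or above it, RPL23AP42, RPSAP58, RPL10P16, RPL21P75 and RPL12P16 do. Below 95%, RPL32P3, RPS10P7, RPL13P5, RPL23AP82, RPL23AP7 and RPL23AP53 aligned over 14.3% to 70.5% of their length. RPS26P19, RPL32P29, RPL32P24 and RPL22P2 aligned over at least 98.6%. At or above 95%, the shortest aligned part among tested copies was 85.4%, in RPL22P1. The copies with short alignments all have a transcribed biotype, as do RPS27AP16 and RPL6P27 above 95%. The part of overlap, aligned length and biotype in the split was not tested. Aligned instead to the coding gene's listed transcript of highest FPKM, 26 copies had at least 95% identity with 21 called lower, and 11 lay below it with 1 called lower. Across the 37 pairs the Spearman rho between the fold changes of copy and coding gene was 0.23, a description over coding genes that nearly all fell. How reads that match several places were counted is not given in the sources used here, so how far the values of near-identical copies are their own was not tested.

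**Figure D5:**
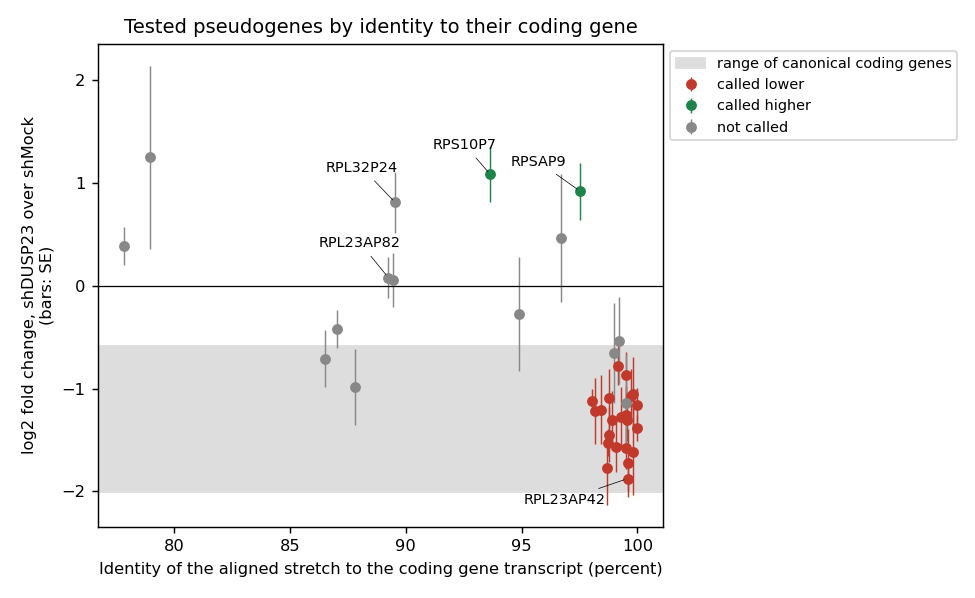
Log2 fold change (shDUSP23 over shMock) of the 37 tested pseudogenes against the percent identity of their aligned stretch to a transcript of the coding gene, with bars for the standard error. The grey band is the range of the canonical coding genes, -2.003 to -0.58. Points called lower all lie at high identity, and the points of lower identity scatter around 0.

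RPL23AP82, a transcribed pseudogene with 89.2% identity to RPL23A over the aligned stretch, had 20.4 and 13.5 FPKM in shDUSP23 and 14.96 and 16.4 FPKM in shMock (log2 fold change 0.08, SE 0.20, adjusted p = 0.77). RPL32P24, with 89.5% identity to RPL32, had 2.41 and 2.07 FPKM in shDUSP23 and 0.940 and 1.19 FPKM in shMock, and it was not called (log2 fold change 0.81, SE 0.30, adjusted p = 0.0535). It shares exon sequence with ANKRD42 on the same strand, whose own log2 fold change was -0.14 and not called.

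RPSAP9 and RPS10P7 were called higher. RPSAP9 (chromosome 9, 76398699 to 76399586, plus strand) is a copy of RPSA, the laminin receptor and small-subunit protein, with 97.5% identity. It had 4.17 and 3.599 FPKM in shDUSP23, about 99.98 and 135 fragments, against 1.43 and 2.28 FPKM in shMock, about 27.0 and 51.0 fragments (log2 fold change 0.92, SE 0.28, limma adjusted p = 0.0265). RPSA itself had 369 and 413 FPKM in shDUSP23 and 835 and 1052 FPKM in shMock. RPS10P7 (chromosome 1, 201518703 to 201530474, plus strand) had 3.50 and 3.08 FPKM in shDUSP23, against 1.21 and 1.36 FPKM in shMock (log2 fold change 1.08, SE 0.27, adjusted p = 0.0112). An aligned stretch of 582 bases, 24.9% of its transcript, had 93.6% identity to RPS10. The call of RPSAP9 was lost without shDUSP23 library 1 (adjusted p = 0.0512), shMock library 1 (0.187) or shMock library 2 (0.0564). The call of RPS10P7 was lost without shMock library 1 (0.0832) or shMock library 2 (0.0716).

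The largest falls among called pseudogenes, after RPL23AP42, were those of RPS27AP16 (log2 fold change -1.78), RPL7P1 (-1.72) and RPL18AP3 (-1.62). All 3 were at low levels. RPS27AP16 had 5.04 and 1.84 FPKM in shDUSP23 and 12.2 and 11.5 FPKM in shMock. RPL7P1 had 1.19 and 0.507 FPKM in shDUSP23 and 3.96 and 3.66 FPKM in shMock, and RPL18AP3 had 1.75 and 0.583 FPKM in shDUSP23 and 3.03 and 6.002 FPKM in shMock.

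Single transcripts gave fewer calls than genes. Of 504 tested transcripts of the coding members 112 were called lower and 0 higher in shDUSP23 (4 higher at an unadjusted p under 0.05), against 2.45% lower and 1.7% higher among all 37453 tested transcripts. By annotation, 96 of 289 protein-coding, 11 of 149 retained-intron, 2 of 34 nonsense-mediated decay and 3 of 32 other processed transcripts were called lower. In coding genes outside the family, the shares called lower were 3.02%, 0.651%, 0.498% and 1.12% for these kinds in the same order. The share was thus highest for protein-coding transcripts there too. The count called lower was 0 without a trend in the variance, and also when any single library was left out. Retained-intron transcripts held 5.11% and 5.33% of the coding members' FPKM in shDUSP23, against 4.85% and 4.57% in shMock. In other coding genes they held 6.10% and 5.97% in shDUSP23, against 5.51% and 5.81% in shMock.

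Changes of a transcript against the rest of its gene did not hold under a second test. With limma's diffSplice 7 transcripts of the family were called lower and 7 higher within their gene, against 0.683% lower and 0.677% higher of all 32628 transcripts tested. In simulated data diffSplice made many false calls, so the log2 ratio of a transcript to the rest of its gene was also fitted with limma, a test added after that was seen. That test called 0 in either direction, also 0% of all transcripts. At an unadjusted p under 0.05 it gave 29 lower and 60 higher among the 500 family transcripts tested. In both directions together these were 89 of 500, against 3036 of all 32628 transcripts. The 12 transcripts with the smallest diffSplice p had ratio adjusted p between 0.499 and 0.541. RPLP0-227, a retained-intron transcript of the stalk gene RPLP0, was at 5.41 and 3.49 FPKM in shDUSP23 and listed at 0 in both shMock libraries (diffSplice adjusted p = 0.000353, ratio adjusted p = 0.499). RPL10A-201, the main coding transcript of RPL10A, was at 123.8 and 98.7 FPKM in shDUSP23 and at 461 and 564 FPKM in shMock (diffSplice adjusted p = 0.018, ratio adjusted p = 0.499).

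Lists of genes tied to the ribosome were set beside the share over all tested genes, of which 22.2% were called lower and 23.1% higher, and beside the 588 abundant coding genes above, of which 272 were called lower. Of 16 further genes known for a 5′ TOP motif 14 were called lower and 0 higher (0 also at an unadjusted p under 0.05, as for the next 2 lists), with a median log2 fold change of -0.98. HNRNPA1, a splicing factor gene, had 149 and 162 FPKM in shDUSP23 and 479 and 493 FPKM in shMock (log2 fold change -1.64), and NPM1, the nucleolar chaperone nucleophosmin, had 272 and 258 FPKM in shDUSP23 and 682 and 766 FPKM in shMock (-1.44). Of 12 noncoding host genes of small nucleolar RNAs 9 were called lower and 0 higher (median -0.75), and SNHG5 (-2.11) and SNHG1 (-1.43) had the smallest p among them. Of 9 chaperones and assembly partners of ribosomal proteins 7 were called lower and 0 higher (median -0.56), among them NACA, of the nascent-chain complex (-1.05), and BCCIP, a partner of RPL23 (-0.92).

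Of 9 genes that regulate ribosome production or the translation of TOP messages, 1 was called lower and 1 higher (2 higher at an unadjusted p under 0.05). Their median log2 fold change was 0.12, against 0.03 over all tested genes. Whether these lists differ from each other was not tested. MYC, a transcription factor that drives ribosome genes, rose to 43.0 and 44.2 FPKM in shDUSP23, against 28.8 and 23.0 FPKM in shMock (log2 fold change 0.75, SE 0.14, limma adjusted p = 0.00367). MAF1, a repressor of RNA polymerase III, fell to 37.0 and 32.0 FPKM in shDUSP23, against 48.9 and 53.7 FPKM in shMock (log2 fold change -0.57, SE 0.13, adjusted p = 0.00865). The mTOR pathway genes MTOR, RPTOR, LARP1, RPS6KB1, RPS6KB2, EIF4EBP1 and EIF4EBP2 were not called, with log2 fold changes between -0.22 and 0.49. RPTOR, at the upper end, had 9.13 and 9.03 FPKM in shDUSP23 and 7.16 and 5.55 FPKM in shMock (limma adjusted p = 0.0649). The activity of the pathway was not measured.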

How the data were processed

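The authors deposited 1 table of FPKM per Ensembl transcript for 4 libraries (2 shDUSP23, 2 shMock). Per the submitters' processing notes, STAR 2.7.1a, DESeq2 1.32.0 and GRCh38 were used in a role not stated. The quantifier, annotation release, strandedness and treatment of reads that match several places were not given in the sources used here. FPKM were summed per gene ID, without rescaling, and genes averaging at least 1 FPKM were tested on log2(FPKM + 0.5), a scale that understates changes of low genes, with limma 3.58.1 (lmFit, eBayes with a trend, two-sided) in R 4.3.3, with no covariates. Transcripts were tested alike, and with diffSplice. The members and gene lists were chosen with earlier results of these data known. Named genes are DUSP23, the canonical genes with the 8 largest and 5 smallest falls, all paralogues and readthrough genes and RPS19BP1, the 8 pseudogenes of highest level, the 4 with the largest called falls and all called higher, the 6 transcripts with the smallest diffSplice p in each direction, and in each other list the 2 members with the smallest p and any called against its majority. Some of these are not reported here.

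Lengths came from GENCODE 29, and covered 93.6% of transcripts. For genes with 1 transcript, 82.4% to 84.6% of values up to 50 fragments were whole within 0.1 fragment. Sums over transcripts were not all whole, so no count model was run. Identity came from blastn 2.17.0. In simulated data for this comparison, with errors drawn independently per gene and all changed features at a log2 level above 3, limma recovered 99% of genes changed by a log2 fold change of 1 among 13474 (32 false of 230 calls) and 100% at 2 among 13481 (23 false of 223). diffSplice recovered 74.5% of transcripts changed by 3 among 29463 (158 false of 370 calls) and the ratio fit 79% (13 false of 232). For these transcript tests only calls in genes without a changed transcript counted as false. Calls on unchanged transcripts of changed genes are among the calls but not among the false ones. Alternatives were pseudocounts of 0.1 and 1 FPKM, filters of 0 and 5 FPKM, equal sums, median-ratio and quantile scaling, eBayes without a trend or robust, the replicate number as a block, a correction for GC content and length by splines of 5 degrees of freedom, protein-coding transcripts alone, and leaving out each library. Tables and figures used Python 3.11.15, pandas 2.3.3, numpy 2.4.6, scipy 1.17.1 and matplotlib 3.10.9.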

Additional observations from a re-analysis of the deposited data

How the results depend on the processing

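The count of coding members called lower stayed within 1.5 times of 87 under every alternative run, and its range was 71 (quantile normalization) to 87. Their median log2 fold change was -0.93 with equal sums, -0.56 with quantile normalization, -1.04 with the GC and length correction, and -1.04 when that was joined with the replicate block. Leaving out 1 library gave medians between -1.41 and -1.12. The pseudogenes' median was -0.82 with equal sums, -0.60 with the GC and length correction with or without the block, -0.95 without a filter, -1.23 with a pseudocount of 0.1 FPKM and -0.91 with 1 FPKM. Pseudogenes called lower numbered 10 at a mean of at least 5 FPKM, and 10 to 25 with 1 library left out. Those called higher numbered 4 with equal sums, 0 at a mean of at least 5 FPKM and 0 to 4 with 1 library left out. The difference in share of the summed FPKM, shDUSP23 minus shMock, was -7.22 for coding members and -0.136 for pseudogenes, in points of percent. It was -8.73 and -0.162 with mitochondrially encoded genes left out.

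Transcripts called lower numbered 46 without a filter, 62 with quantile normalization, 0 without a trend, 0 with the replicate block and 0 each time 1 library was left out, and those called higher 1 with equal sums and 1 with a pseudocount of 1 FPKM. Transcripts lower within their gene numbered 0 in the ratio fit, 2 with the replicate block and 0 to 30 with 1 library left out. Those higher within their gene numbered 0 in the ratio fit, 4 without a filter, 3 with quantile normalization, 2 with the replicate block and 0 to 32 with 1 library left out. The direction reversed with quantile normalization for RPL18 (0.17), RPL28 (0.17), RPL38 (0.020) and RPL8 (0.040), and with the GC and length correction, with and without the block, for RPS27L (0.11) and RPL17-C18orf32 (0.025), none of them then called. The causes were not tested. Of 955 recomputed values of named genes and transcripts 841 kept their direction and their side of the threshold, 106 lost the call or changed sign without a call, and 8 reversed.

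The replicate numbers are not known to pair the libraries. Libraries of the same number deviated from their group means with a correlation of 0.05 over genes. As the numbers give only 2 pairs, the block is a description, and with it the coding members called lower numbered 87. The depth and 2 libraries per group limit low genes. The deepest library, shDUSP23 library 2, listed 9946 transcripts at 0, against 4814 in shDUSP23 library 1. The shMock libraries 1 and 2 listed 2930 and 4334 at 0. Depth alone thus does not order these numbers, and their part in the low values was not tested. A lone library left in a group was assumed to vary like the other group.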
